A study of Mus musculus with 6 samples.

Results

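Oxidative phosphorylation was examined through the genes that encode its enzymes. Members were taken by name from the gene table (Nduf, Uqcr, Cox4 to Cox8, Atp5 and Sdh genes in the nucleus, and the mt-Nd, mt-Co, mt-Cytb and mt-Atp genes of the mitochondrion), without names that end as numbered pseudogenes. This gave 106 of 39179 genes, of which 93 were nuclear and 13 mitochondrial. The nuclear members belong to complex I (43), II (4), III (8), IV (20, with Ndufa4 and Ndufa4l2) and V (18). By gene name alone the rule also took in 10 genes that are not subunits, 7 of them Ndufaf assembly factors, as well as Atp5l2, which GENCODE lists as a processed pseudogene.

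The libraries came from tumor-associated macrophages (TAMs) that were sorted from melanomas by CD45, CD11b, F4/80 and absent or low Ly6C. The sort excluded cells that carried Ly6G or an NK cell marker. Tumors grew from injected cells of a BRAF V600E melanoma line in C57BL/6 hosts aged 8 weeks, and each library pooled macrophages of several tumors. Cells of 3 libraries came from tumors of the unedited line (Ptgs-competent) and those of the other 3 from tumors of cells lacking Ptgs1 and Ptgs2, the cyclooxygenase genes (Ptgs-deficient). The macrophages themselves carried no edit in either group, and the deficient tumor cells descend from edited cells of 1 line, so the comparison does not cover other lines.

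Respiratory complexes I to IV pass electrons from NADH and succinate to oxygen. Of these, complexes I, III and IV pump protons out of the mitochondrial matrix, and complex V uses their return to make ATP. Most subunits are encoded in the nucleus, made in the cytosol and imported, while the mitochondrial genome keeps a small set of core subunits of complexes I, III, IV and V. That genome is transcribed as long precursors from which the messengers are cut, so its genes and the nuclear ones are under separate transcription. Activated macrophages are known to shift between glycolysis and respiration, and succinate oxidation at complex II is one of the steps linked to their inflammatory state.

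Library totals ranged from 4431184 to 8760679 counts, and 8793 genes passed the filter for testing. Correlations of log2 CPM (counts scaled to a common library total) between libraries ranged from 0.407 to 0.720 across genes, and the common biological coefficient of variation was 1.26. All 15 macrophage markers were detected, and 9 of them were higher in every Ptgs-deficient library (11% of all tested genes were). Their sum was 22835, 23265 and 8878 CPM in Ptgs-competent and 29281, 28418 and 33632 CPM in Ptgs-deficient libraries, so that it separated the groups and was lowest in Ptgs-competent replicate 3. Of 7 red cell markers, 3 were at 0 in every library, and the sum was 698, 626 and 225 CPM against 18.2, 125 and 119 CPM. Sums were also apart for neutrophil markers (621 to 750 against 452 to 532 CPM, with Ly6g, Elane and Mpo at 0), endothelial markers (104 to 197 against 37.3 to 71.9 CPM, 4 of 8 at 0) and, in the other direction, NK and T cell markers (2.13 to 2.23 against 16.8 to 33.3 CPM, 10 of 16 at 0), and overlapped for B cell markers. Of 28 tumor and stromal markers, 10 were at 0 in every library, among them the melanocyte genes Pmel, Mlana, Tyr, Tyrp1, Dct and Sox10. Their sum was 617, 1392 and 2294 CPM in Ptgs-competent replicates 1, 2 and 3 and 134 to 211 CPM in the Ptgs-deficient libraries. In bulk libraries, fewer cells of a type and less RNA per cell cannot be told apart. All values below are listed in the order of replicates 1, 2 and 3, and levels are CPM scaled by TMM (trimmed mean of M-values).

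Of the 13 mitochondrial members, 8 had counts and 5 (mt-Co2, mt-Co3, mt-Atp6, mt-Atp8 and mt-Nd4l) had 0 counts in every library, where a count of 0 allows up to 3 counts. Those 5 genes lie in 1 stretch of the mitochondrial genome (GRCm38 chrM:7013-10173), in which only mt-Nd3 had counts. GENCODE places copies of much of this stretch, of the end of mt-Co1 and of the start of mt-Nd4, on the minus strand of chromosome 1. Sequences of 3′ ends are shown because the libraries read the 3′ end of transcripts, and the ends of mt-Co2 (no counts), mt-Nd3 and mt-Co1 (counts, with a copy) and mt-Nd1 (counts, no copy) can be compared. Each run gives the last 60 bases of the gene, from chrM:7637-7696, chrM:9747-9806, chrM:6813-6872 and chrM:3648-3707 on the plus strand, and capitals mark bases that the annotated chromosome 1 copy does not cover. In mt-Co2 and mt-Nd3 these are the last 3 bases, before which the annotated copy stops, and not mismatches.
mt-Co2: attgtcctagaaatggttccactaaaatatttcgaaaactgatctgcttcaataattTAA
mt-Nd3: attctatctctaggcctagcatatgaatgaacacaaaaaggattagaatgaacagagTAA
mt-Co1: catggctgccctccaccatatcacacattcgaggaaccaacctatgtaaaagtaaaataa
mt-Nd1: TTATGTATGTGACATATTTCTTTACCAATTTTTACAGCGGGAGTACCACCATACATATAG

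Copies covered the ends of 6 mitochondrial members almost wholly. In mt-Co1 and mt-Co2, 100% of the 50-base windows of the last 300 bases occurred identically in an annotated pseudogene transcript, and the share was 99.6% in mt-Co3, 98.8% in mt-Nd3 and mt-Atp6 and 98.8% in mt-Nd4l. The copy of mt-Co2 (Gm28661) was identical over 681 bases, and that of mt-Nd3 (Gm28438) differed at 1 base of 345 (T3C, counted from the first base of mt-Nd3, with the base of the copy given last). By contrast, 31.9% of windows were shared in mt-Nd2, 1.99% in mt-Nd5 and 0% in mt-Nd1, mt-Nd4, mt-Nd6, mt-Cytb and mt-Atp8. Sharing with annotated copies and missing counts did not coincide fully. mt-Co1 and mt-Nd3 had counts and nearly or wholly shared ends, while mt-Atp8 had no counts and no window shared with an annotated transcript. The annotated chromosome 1 copies of mt-Co2 (24614885-24615565) and mt-Atp6 (24613974-24614651) leave a gap between them that was not searched. In the mitochondrial genome mt-Atp8 starts between mt-Co2 and mt-Atp6, so its 0% does not show that it lacks a copy. Of the chromosome 1 copies of the 6 genes with shared ends, only that of mt-Nd4l (Gm10222) has a row in the counts used here, at 0 in every library. On chromosome 2, a copy of mt-Co2 (Gm13341) held 0 to 89 counts and one of mt-Co1 (Gm13340) 0 to 4 counts. mt-Atp8 ends inside mt-Atp6 (chrM:7927-8607) and mt-Nd4l inside mt-Nd4 (chrM:10167-11544), so neither gene end need be a transcript end. How reads with several alignments were handled is not given in the sources used here. The level of the 6 genes with shared ends and of mt-Atp8 is therefore uncertain, and the part of the copies in it was not tested.

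**Figure D1:**
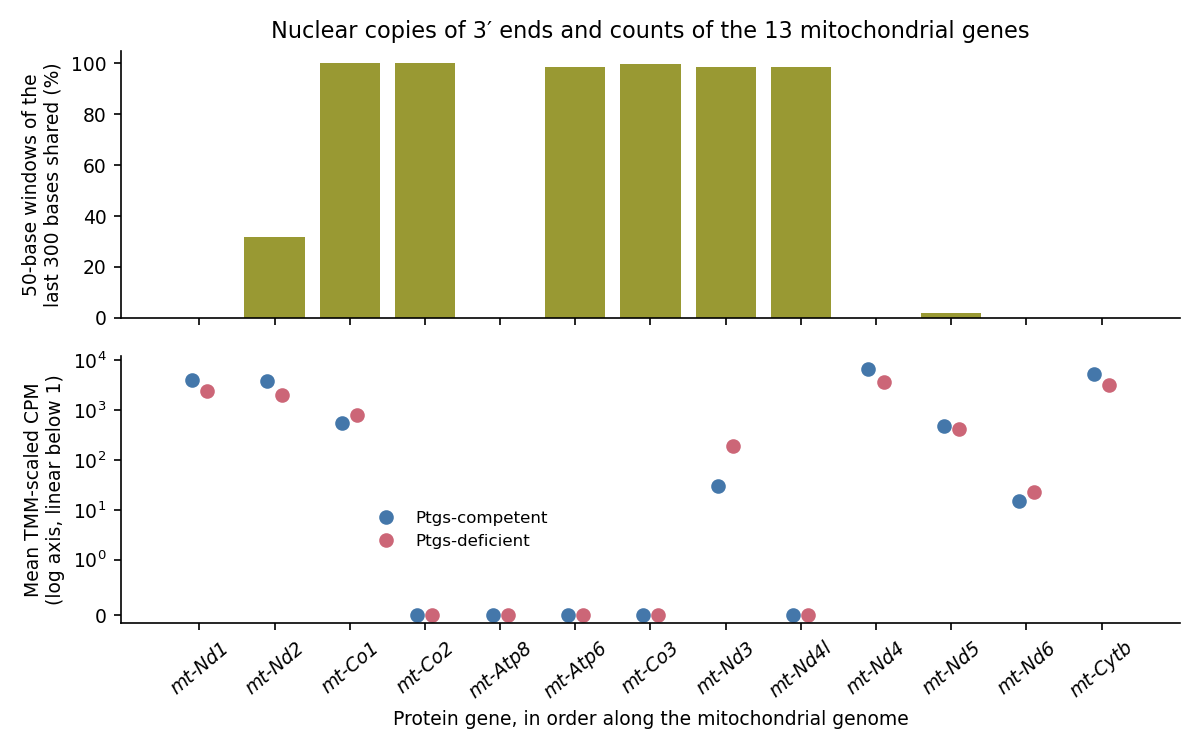
Top, percent of 50-base windows in the last 300 bases (or the whole gene, if shorter) of each mitochondrial protein gene that occur in another annotated transcript; bottom, mean TMM-scaled CPM of each group of 3 libraries on a log axis that is linear below 1. The 5 genes at 0 counts lie between mt-Co1 and mt-Nd4, and 4 of them share over 98% of windows, as do mt-Co1 and mt-Nd3, which had counts.

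No member was called in the comparison of the groups. A call needed an FDR (Benjamini-Hochberg adjusted p) up to 0.05 in edgeR's quasi-likelihood test and a fitted log2 change past 1.5 either way. Of 90 tested members, 82 nuclear and 8 mitochondrial, 0 were called, and 0.216% of all tested genes were. Of the 82 nuclear members that passed the filter on low counts, 72 had counts in every library and 10 were at 0 in at least 1. Among the members, 6 had an unadjusted p under 0.05, which is 6.67% against 8.83% of all tested genes. Atp5j, Ndufa4, Ndufa8 and mt-Nd3 were the 4 with higher fitted levels in Ptgs-deficient tumors, and Ndufs8 and mt-Nd4 the 2 with lower ones. Other tests on the same counts called 1 of the 90 members, Atp5j, where they called 2.74% (the edgeR likelihood ratio test), 3.73% (DESeq2) and 1.40% (limma voom) of all tested genes. Without a filter on low counts, edgeR called Atp5j and mt-Nd3, and 1.89% of all genes. The 3 libraries of a group are separate samples by their labels, and p-values measure the spread between them.

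The medians of nuclear and mitochondrial members lay on opposite sides of 0 in fitted fold changes, given throughout as Ptgs-deficient over Ptgs-competent. Median log2 fold changes were 0.28 over 82 nuclear members (57 higher, 25 lower) and -0.47 over 8 mitochondrial members (3 higher, 5 lower). The difference was 0.74, and the median of all tested genes was 0.018. Of the 3 higher mitochondrial members, mt-Co1 and mt-Nd3 share 100% and 98.8% of their last windows with copies. The other, mt-Nd6, had an SE of 1.95 and 0 counts in Ptgs-competent replicate 2. The 5 lower ones share 31.9% of windows or less. Without Ptgs-competent replicate 3 the mitochondrial median was 0.14 and the difference 0.18, and without Ptgs-competent replicate 1 the difference was 1.19. With limma voom and sample quality weights the median of all genes was itself 0.39, against 0.37 for the nuclear members, so that they did not stand above other genes there.

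**Figure D2:**
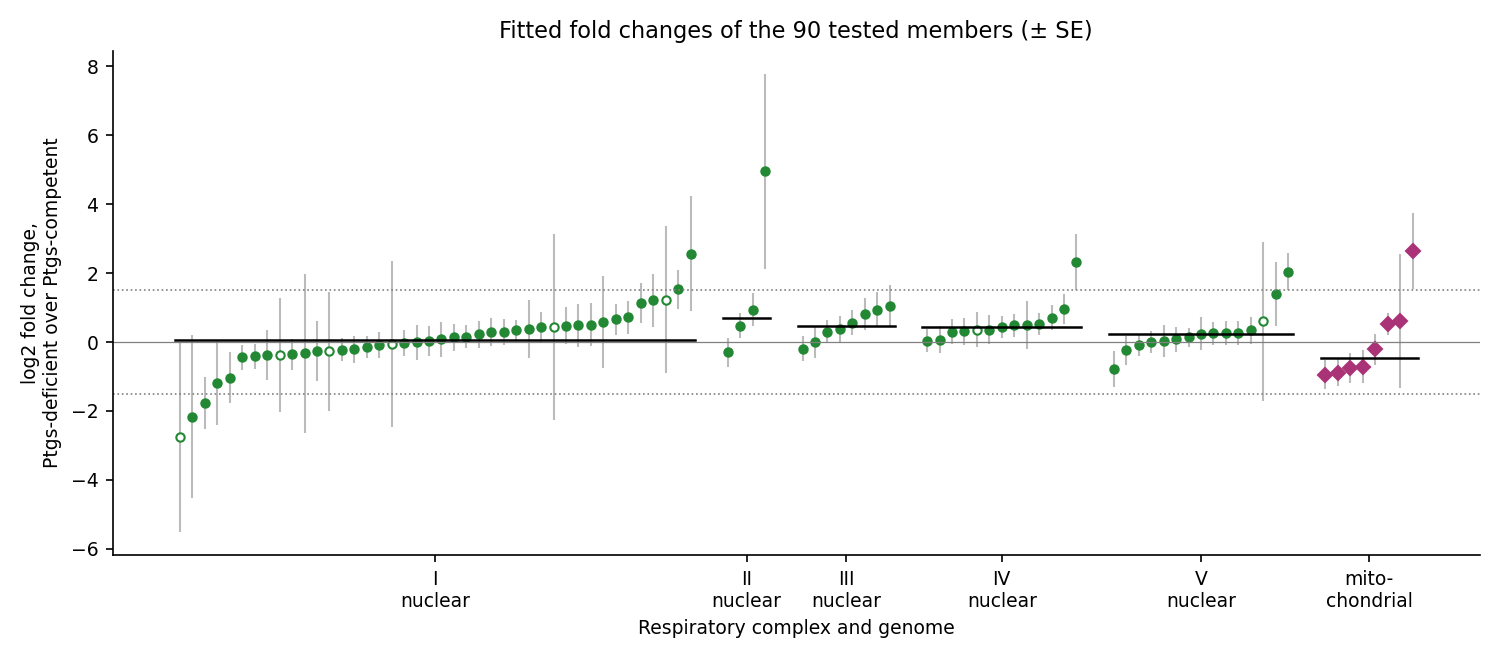
Fitted log2 fold change (Ptgs-deficient over Ptgs-competent, y axis) with its SE for each of the 90 tested members, sorted within complex (x axis); filled circles are nuclear subunits, open circles nuclear members that are not subunits, diamonds mitochondrial members, black lines medians, and dotted lines the fold threshold of 1.5. The 13 tested complex IV members lie above 0 (Cox7a2 falls below 0 under other scalings, and Cox7a2 and Cox4i1 with single libraries left out) and 5 of 8 mitochondrial members below it.

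The share of counts showed which libraries carried this contrast. Mitochondrial members took 0.941%, 2.34% and 3.13% of all counts in Ptgs-competent replicates 1 to 3 and 1.05%, 1.29% and 1.38% in their Ptgs-deficient counterparts, where the widest exact binomial 95% interval (3.11% to 3.14%) covers counting error only. Ptgs-competent replicates 2 and 3 lay above all other libraries, and replicate 1 below all of them, so that the groups overlapped. Nuclear members took 2.04%, 1.62% and 2.14% in Ptgs-competent and 2.06%, 2.34% and 2.60% in Ptgs-deficient libraries, with overlap between 2.14% and 2.06%. The log2 ratio of nuclear to mitochondrial counts, which no scaling of libraries changes, was 1.12, -0.53 and -0.55 against 0.97, 0.86 and 0.91. Its mean was 0.013 ± 0.957 (SD, n = 3) and 0.912 ± 0.055 (SD, n = 3), and the high value of Ptgs-competent replicate 1 lay beyond all Ptgs-deficient libraries.

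**Figure D3:**
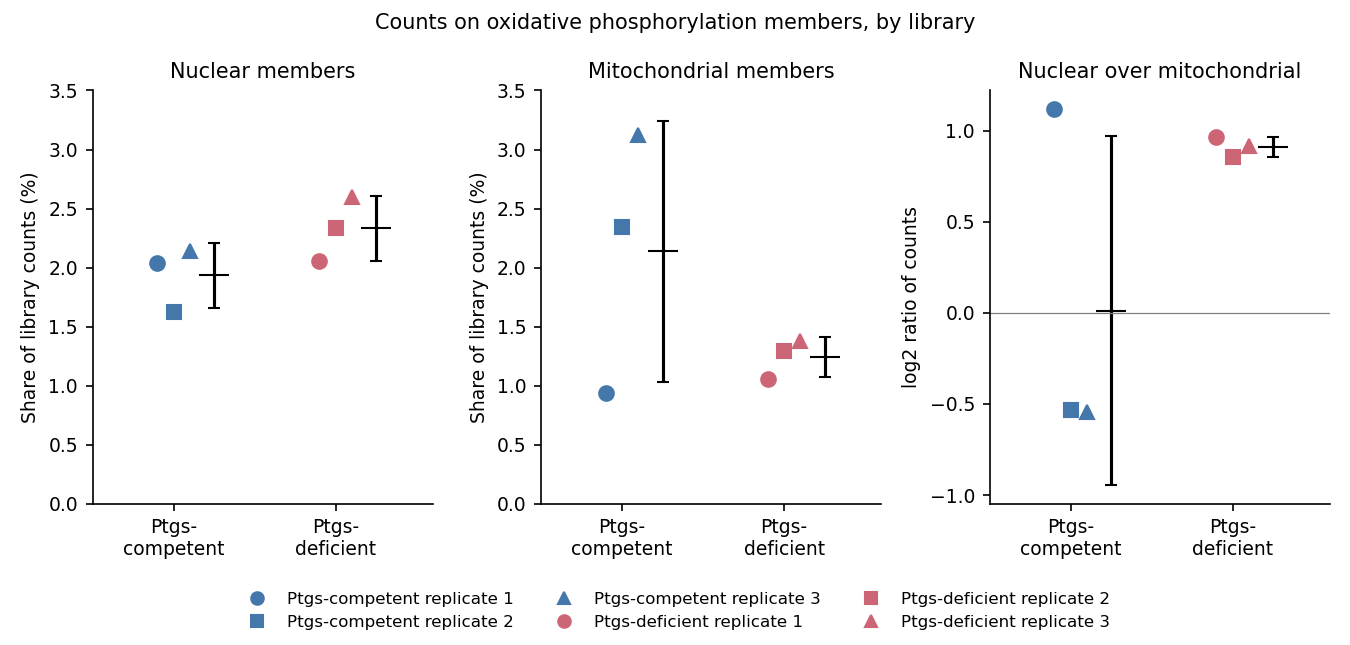
Percent of each library's counts on nuclear members (left) and mitochondrial members (middle), and the log2 ratio of both sums (right), with 1 point per library and bars for mean ± SD of 3 libraries. Ptgs-competent replicates 2 and 3 hold the highest mitochondrial shares (2.34% and 3.13%), while Ptgs-competent replicate 1 (0.941%) lies below all other libraries.

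Other transcripts were read in the same libraries. The mitochondrial ribosomal RNAs, which are no members, took 0.771%, 1.76% and 3.65% of counts in Ptgs-competent and 1.13%, 1.39% and 0.918% in Ptgs-deficient libraries, so that replicates 2 and 3 of the first group were again highest, while the order within the Ptgs-deficient group differed from that of the members. Tumor and stromal marker sums were also highest in these 2 libraries (1392 and 2294 CPM), and the macrophage marker sum was lowest in replicate 3 (8878 CPM). Of 13 genes of the list for RNA quality and dissociation response, 9 were higher in every Ptgs-deficient than in every Ptgs-competent library and 1 was lower, against 11% and 8.01% of all tested genes. The median log2 fold change of this list was 1.12, against 0.018 for all tested genes. In edgeR's quasi-likelihood test, 12 of the 13 had an unadjusted p under 0.05, against 8.83% of all tested genes. The sum of this list was 17081, 26462 and 27381 CPM against 23250, 18206 and 16619 CPM. It was highest in Ptgs-competent replicates 2 and 3, as the mitochondrial share was, while most single genes of the list were higher in Ptgs-deficient libraries. The part of cell mixture and RNA quality in the contrast between nuclear and mitochondrial members was not tested.

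Mitochondrial complex I genes encode the membrane arm of NADH dehydrogenase. mt-Nd4 (chrM:10167-11544) was measured at 3438, 7293 and 9510 CPM in Ptgs-competent and at 3139, 3698 and 4060 CPM in Ptgs-deficient libraries. Ptgs-competent replicate 1 lay among the Ptgs-deficient libraries and the other 2 above them. The log2 fold change was -0.89 ± 0.40 (SE; edgeR FDR 0.554), and it ranged from -1.205 to -0.505 with single libraries left out. The related mt-Nd1 (chrM:2751-3707) stood at 1791, 3582 and 6643 CPM against 1536, 2551 and 3226 CPM, with a log2 fold change of -0.72 ± 0.48 that was -0.084 without Ptgs-competent replicate 3, -0.44 without Ptgs-deficient replicate 1 and -1.06 without Ptgs-competent replicate 1. mt-Nd2 (chrM:3914-4951) had 1629, 5191 and 4910 CPM against 2168, 2304 and 1636 CPM. Its fold change on the log2 scale was -0.94 ± 0.43, the lowest of the 8, at an edgeR FDR of 0.59. In all of mt-Nd1, mt-Nd2, mt-Nd4, mt-Nd5 and mt-Cytb, the lowest Ptgs-competent library was replicate 1.

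mt-Cytb (chrM:14145-15288), the cytochrome b of complex III, followed the same order with 2392, 6452 and 7292 CPM against 2273, 3251 and 4053 CPM. Its log2 fold change of -0.75 ± 0.44 ranged from -1.10 to -0.41 with single libraries left out. mt-Nd5 (chrM:11742-13565) had 264, 399 and 766 CPM against 258, 446 and 527 CPM, and its log2 fold change of -0.21 ± 0.44 turned to 0.36 without Ptgs-competent replicate 3. mt-Co1 (chrM:5328-6872), the catalytic subunit of complex IV that reduces oxygen, differed in sign. It stood at 398, 590 and 682 CPM in Ptgs-competent and 654, 889 and 864 CPM in Ptgs-deficient libraries, with overlap at 1 library and a log2 fold change of 0.53 ± 0.32 (edgeR FDR 0.860).

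The 2 remaining mitochondrial members had few counts in some libraries. mt-Nd3 (chrM:9459-9806) was at 1.12, 64.2 and 26.5 CPM in Ptgs-competent and 47.6, 308 and 217 CPM in Ptgs-deficient libraries, a log2 fold change of 2.64 ± 1.11 (edgeR FDR 0.498) that was 3.80 without Ptgs-competent replicate 2. Only 7 counts lay behind the value in Ptgs-competent replicate 1, against 2585 counts in Ptgs-deficient replicate 2, and Ptgs-competent replicate 2 lay above Ptgs-deficient replicate 1. mt-Nd6, encoded on the other strand (chrM:13552-14070), had 11.95, 0 and 32.8 CPM against 19.0, 33.5 and 16.3 CPM. Among the 8 mitochondrial members, 0 were separated between groups in either direction. Of all tested genes, 11% were separated upward and 8.01% downward, so 0 of 8 is not read as a result.

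**Figure D4:**
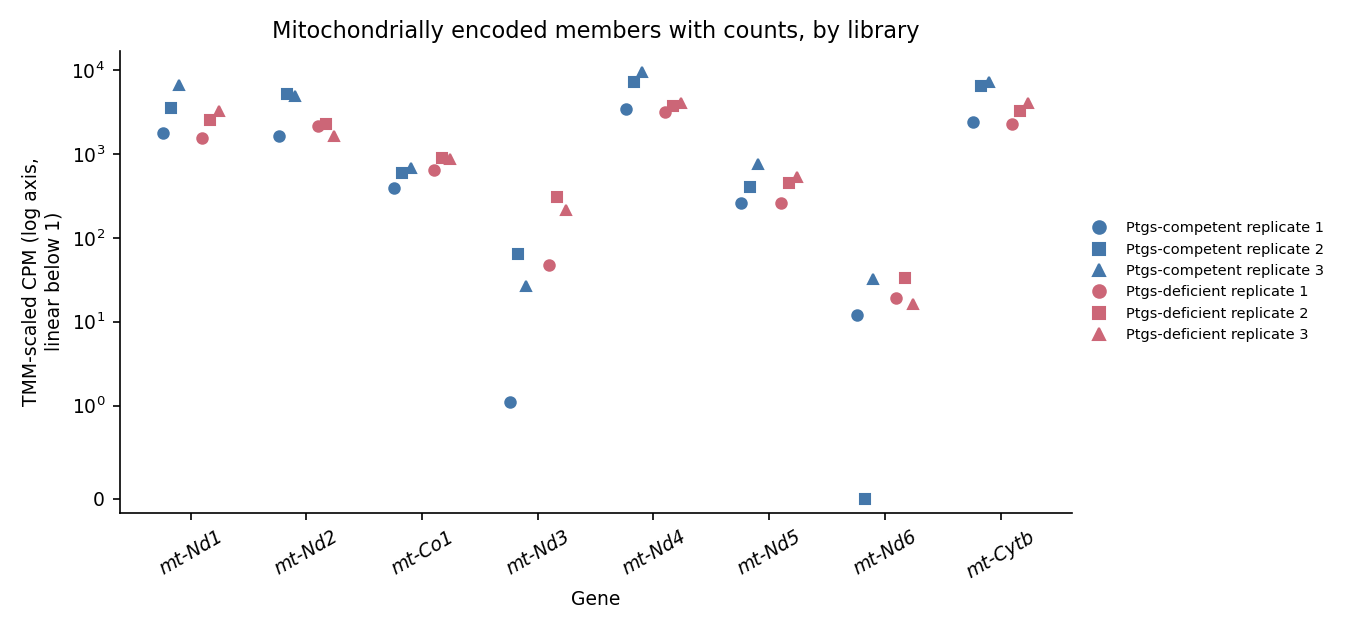
TMM-scaled CPM (log axis, linear below 1) of the 8 mitochondrial members with counts, with 1 symbol per library and groups by color. Ptgs-competent replicate 1 is the lowest Ptgs-competent library except in mt-Nd6, where replicate 2 is at 0.

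Groups did not overlap in 12 of the 82 tested nuclear members. In 9 of 82 (11%), every Ptgs-deficient library was above every Ptgs-competent one, as in 11% of all tested genes (970 of 8793). In 3 of 82 (3.66%) every one was below, against 8.01% of all tested genes. The 9 were Ndufa8, Ndufb6, Ndufs1, Sdha, Uqcrc2, Cox6a1, Cox6c, Ndufa4 and Atp5j, and the 3 were Ndufa9, Ndufs8 and Atp5g1. Ndufs1 and Ndufa9 fell outside the naming rule and were chosen after their values were seen.

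**Figure D5:**
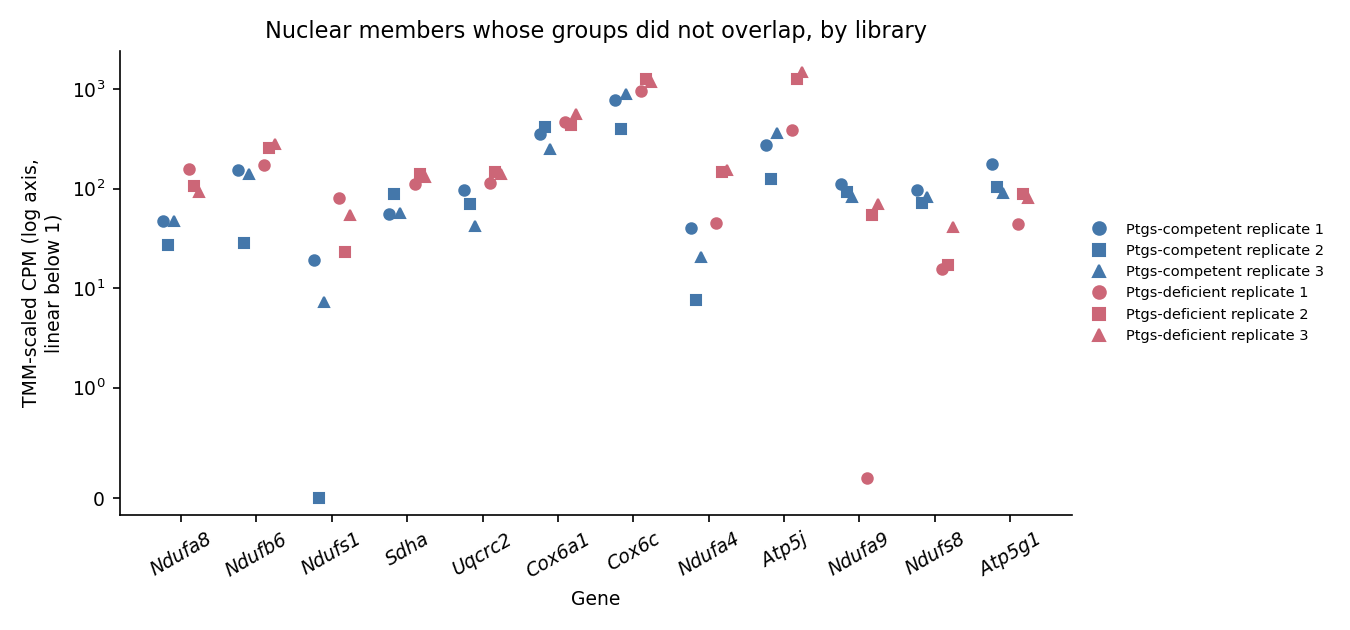
TMM-scaled CPM (log axis, linear below 1) of the 12 nuclear members whose groups did not overlap, with 1 symbol per library. Atp5j reaches 1267 and 1482 CPM in Ptgs-deficient replicates 2 and 3, and Ndufs8 stays at 40.97 CPM or lower in all 3 Ptgs-deficient libraries.

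Nuclear complex I subunits build the arm that binds NADH and the supernumerary shell. Of 42 tested complex I members, 22 were fitted higher and 20 lower, with a median of 0.053. Ndufa1, the complex I subunit with the highest mean level, had 364, 308 and 953 CPM in Ptgs-competent and 654, 944 and 970 CPM in Ptgs-deficient libraries, where replicate 3 of the first group overlapped with the second. Ndufa8 (chr2:36036326-36049406), a supernumerary subunit, stood at 47.8, 27.4 and 47.2 CPM against 156, 106 and 91.7 CPM. All its Ptgs-deficient libraries were above the others, with a log2 fold change of 1.53 ± 0.57 (edgeR FDR 0.380). Ndufs8 (chr19:3908863-3912774), which holds iron-sulfur clusters on the electron path, went the other way.

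Levels of Ndufs8 were 97.1, 70.9 and 82.6 CPM in Ptgs-competent and 15.5, 17.03 and 40.97 CPM in Ptgs-deficient libraries, a log2 fold change of -1.77 ± 0.76 (edgeR FDR 0.515). Groups were also apart for Ndufb6 (chr4:40270591-40279421), at 153, 28.7 and 139.9 CPM against 172, 254 and 279 CPM. Its 3′ end overlaps Smim27 on the opposite strand, which had 124 to 659 counts, and 82.9% of its last windows were shared with that gene. The strand setting of the counting is not given in the sources used here, so reads of this pair cannot be told apart. Ndufs1, the largest iron-sulfur subunit, had 19.3, 0 and 7.33 CPM against 81.2, 23.0 and 54.0 CPM. Ndufa9, a subunit near the quinone site, was at 111, 92.9 and 81.5 CPM against 0.182, 54.3 and 70.1 CPM, so that 1 count in Ptgs-deficient replicate 1 lay behind its lowest value. The 6 tested Ndufaf assembly factors were sparse, with 2 fitted higher and 4 lower and a median SE of 2.28.

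Complex II, succinate dehydrogenase, joins the tricarboxylic acid cycle to the respiratory chain and is encoded in the nucleus alone. Sdha, the flavoprotein that oxidizes succinate (chr13:74322254-74350280), had 55.5, 88.0 and 56.5 CPM in Ptgs-competent and 112, 141 and 132 CPM in Ptgs-deficient libraries. The groups did not overlap, and the log2 fold change was 0.95 ± 0.48 (edgeR FDR 0.706). Sdhb, the iron-sulfur subunit, stood at 452, 251 and 253 CPM against 146, 282 and 351 CPM, with both extremes in replicate 1 of a group. The membrane anchor Sdhc had 352, 249 and 294 CPM against 267, 393 and 589 CPM, with overlap. Sdhd, the other anchor, was sparse, at 0, 0 and 12 counts in Ptgs-competent and 3, 552 and 71 counts in Ptgs-deficient libraries. In this complex 3 members were fitted higher and Sdhb lower (-0.30 ± 0.42), but Sdhb was at 0.046 without Ptgs-competent replicate 1 and 0.012 without Ptgs-deficient replicate 1.

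Complex III passes electrons from ubiquinol to cytochrome c. Of its 8 nuclear members, 7 were fitted higher and 1 lower, with a median of 0.47. Their summed level was 2293, 1540 and 2000.4 CPM in Ptgs-competent and 2465, 2514 and 2967 CPM in Ptgs-deficient libraries. The groups did not overlap in this sum. By contrast, the sum of nuclear subunits overlapped in complex I (5492 to 8288 against 6744 to 8820 CPM). It also overlapped in complex II (588 to 860 against 525 to 1087 CPM) and complex V (4704 to 5792 against 4794 to 7490 CPM). Uqcrc2, a core subunit (chr7:120635176-120659524), was the 1 complex III member separated by itself. It stood at 97.2, 69.4 and 41.8 CPM against 113, 148 and 139 CPM (log2 fold change 0.94 ± 0.50, edgeR FDR 0.748). Its end overlaps Pdzd9 on the opposite strand, which had 0 counts in every library. Uqcrfs1, the Rieske iron-sulfur protein, had 154, 25.1 and 108 CPM against 208, 135 and 244 CPM. Uqcrq stood at 449, 205 and 135 CPM against 301, 511 and 579 CPM. Uqcrh, the member with the highest mean level, was at 395, 265 and 523 CPM against 742, 435 and 572 CPM. In each of these 3 genes the groups overlapped.

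Complex IV, cytochrome c oxidase, passes the electrons on to oxygen. All 13 tested nuclear members were fitted higher, with a median of 0.43, although Cox7a2, at 0.035, fell to -0.031 with DESeq2 size factors and -0.017 with unscaled library totals, and Cox4i1, at 0.069, fell to as low as -0.095 with single libraries left out. Of all genes, 50.7% were fitted higher. The subunits together summed to 4977, 3422 and 4697 CPM in Ptgs-competent and 5017, 6023 and 6918 CPM in Ptgs-deficient libraries. These sums did not overlap, though Ptgs-competent replicate 1 and Ptgs-deficient replicate 1 were nearly equal. Cox6c (chr15:35925886-35938246), the member with the highest mean level, stood at 775, 396 and 901 CPM against 952, 1254 and 1178 CPM. Its log2 fold change was 0.71 ± 0.36 (edgeR FDR 0.698), with no overlap, and ranged from 0.43 to 0.99 with single libraries left out. A processed pseudogene, Cox6c2, shared 38.2% of the last windows of Cox6c and held 1 to 60 counts.

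Ndufa4 (chr6:11900292-11907497), named for complex I but a subunit of complex IV, had 40.5, 7.55 and 20.7 CPM in Ptgs-competent and 45.3, 146 and 156 CPM in Ptgs-deficient libraries. The groups were apart by a narrow gap between both replicates 1, and the log2 fold change was 2.33 ± 0.82 (edgeR FDR 0.376), or 3.04 without Ptgs-competent replicate 1. Cox6a1 was at 353, 412 and 249 CPM against 465, 436 and 566 CPM, also without overlap (0.53 ± 0.33, edgeR FDR 0.860). Cox7c had 170, 138 and 359 CPM against 290, 465 and 531 CPM, where Ptgs-competent replicate 3 lay above Ptgs-deficient replicate 1. Of the last windows of Cox7c, 73.3% were shared with any of 3 pseudogenes. Cox4i1, the subunit through which ATP inhibits the enzyme, was level between groups within its spread, at 257 ± 40.01 and 269 ± 99.6 CPM (SD, n = 3).

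Tissue forms of complex IV and V subunits were told apart by the counts. Cox7b2, Cox8b, Cox8c and Ndufa4l2 had 0 counts in every library, Cox6b2 had 1 count in all, and Cox6a2 had 65 counts in Ptgs-deficient replicate 2 alone. Cox4i2, a form known from lung, had 108 and 36 counts in Ptgs-deficient replicates 1 and 2 and 0 counts in the other libraries. The common forms were counted in every library: Cox6b1 at 507 ± 139.7 and 625 ± 197 CPM, Cox8a at 564 ± 269.6 and 727 ± 168 CPM and Cox7a2 at 599.9 ± 154 and 614 ± 151 CPM (SD, n = 3), none separated between groups. Cox7a1, the heart and muscle form, was present at 62.7 ± 42.9 and 88.6 ± 9.85 CPM (SD, n = 3), and Cox7a2l, a supercomplex factor, at 75.2 ± 15.9 and 96.9 ± 21.6 CPM (SD, n = 3).

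Complex V, the ATP synthase, held the member with the smallest p. Atp5j (chr16:84827866-84835625), coupling factor 6 in the stalk that joins the motor to the catalytic head, was measured at 273, 124 and 362 CPM in Ptgs-competent and 387, 1267 and 1482 CPM in Ptgs-deficient libraries. Ptgs-deficient replicates 2 and 3 stood far above all others, while replicate 1 was close to Ptgs-competent replicate 3. The log2 fold change was 2.05 ± 0.55 (edgeR FDR 0.208), and it ranged from 1.72 to 2.47 when single libraries were left out. Over the 15 tested complex V members, 12 were fitted higher and 3 lower, with a median of 0.25. Atp5k, the member with the highest mean level, was at 1543, 993 and 759 CPM against 998, 1045 and 1077 CPM. Atp5l, a membrane subunit, had 8.61, 20.4 and 47.6 CPM against 37.8, 68.7 and 94.4 CPM, and 11 pseudogenes shared windows with its end.

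The proton-carrying c ring of complex V is made from 3 genes that encode the same mature protein. Atp5g1 (chr11:96068852-96075670) was at 176, 103 and 89.5 CPM in Ptgs-competent and 44.5, 87.5 and 81.1 CPM in Ptgs-deficient libraries. Its Ptgs-deficient libraries all lay below the Ptgs-competent ones, by a narrow gap between 89.5 and 87.5 CPM. The log2 fold change was -0.79 ± 0.53 (edgeR FDR 0.92), and it ranged from -0.97 to -0.43 with single libraries left out. Of the last windows of Atp5g1, 20.3% were shared with any of 26 other genes. Atp5g3 carried most of the counts, at 679, 797 and 748 CPM against 682, 848 and 914 CPM. Its log2 fold change of 0.14 ± 0.29 ranged from 0.051 to 0.28 with single libraries left out. Atp5g2 had 29 counts in Ptgs-deficient replicate 3 and 0 counts elsewhere, and 98.4% of its last windows were shared with 2 pseudogenes.

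Sequences before the start sites were compared because nuclear members are known targets of shared transcription factors. RefSeq promoters (GRCm38.p6, 250 bases before to 50 after a start) were matched for 73 of 93 nuclear members. Exact letters were searched on both strands: GCATGCGC for NRF1, CCGGAAG for GABP, AAGATGGC for YY1 and CAAGGTCA for ERR. A match in any promoter of a gene was found in 12 of 73 members (16.4%) for NRF1, against 3.05% of 27025 genes, and in 17 (23.3%) for GABP, against 9.93%. YY1 letters were in 9 (12.3%) against 3.19% and ERR letters in 4 (5.48%) against 1.76%. The NRF1 letters can overlap their own reverse complement. Member promoters had a median GC content of 57.5% against 52.7% for all promoters.

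Upstream sequences of 3 separated members are shown to place these letters beside the values given above. They are the 250 bases before the start of Atp5j (chr16:84834977-84835226), Cox6a1 (chr5:115348959-115349208) and Ndufa8 (chr2:36049339-36049588), all on the minus strand, and capitals mark matches.
Atp5j: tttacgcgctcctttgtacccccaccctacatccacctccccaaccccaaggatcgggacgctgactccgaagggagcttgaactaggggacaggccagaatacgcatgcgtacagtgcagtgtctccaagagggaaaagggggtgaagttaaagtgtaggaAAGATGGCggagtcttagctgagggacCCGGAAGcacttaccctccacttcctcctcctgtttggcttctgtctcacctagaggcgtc
Cox6a1: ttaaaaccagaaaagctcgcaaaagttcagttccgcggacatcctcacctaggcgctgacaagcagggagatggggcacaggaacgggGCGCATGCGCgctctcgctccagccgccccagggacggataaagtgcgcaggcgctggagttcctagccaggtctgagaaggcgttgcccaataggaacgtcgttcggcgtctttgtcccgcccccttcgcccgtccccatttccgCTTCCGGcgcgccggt
Ndufa8: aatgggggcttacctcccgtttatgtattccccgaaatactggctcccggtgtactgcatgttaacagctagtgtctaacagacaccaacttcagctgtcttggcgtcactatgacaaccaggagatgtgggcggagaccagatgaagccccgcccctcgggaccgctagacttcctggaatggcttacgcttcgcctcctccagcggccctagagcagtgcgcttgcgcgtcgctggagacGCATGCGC

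Atp5j held YY1 letters that begin 88 bases and GABP letters that begin 61 bases before this start, and none in its second RefSeq promoter. Cox6a1 held the NRF1 letters on both strands in 1 overlapping block and GABP letters 16 bases before the start, and Ndufa8 held NRF1 letters that end at the start. Matches were not particular to separated members: 4 of the 6 matched members that were higher, 2 of the 3 that were lower and 27 of the 60 that overlapped held any of the 4. Of the factors' own messengers, Nrf1 stood at 21.7 ± 12.8 and 19.7 ± 12.6 CPM, Yy1 at 11.9 ± 10.7 and 38.5 ± 10.4 CPM and Esrra, which encodes ERR alpha, at 9.99 ± 17.3 and 71.7 ± 31.3 CPM (SD, n = 3), the last with 0 counts in Ptgs-competent replicates 2 and 3. Gabpa, the DNA-binding subunit of GABP, had 147, 0 and 65 counts against 0, 6 and 3 counts and was not tested.

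Genes that work around the complexes were read from lists outside the name rule, and 0 of them were called. Some of the tested genes in these lists passed the filter on low counts only, or almost only, through the group where they were high, so directions are not counted over the lists. Of 25 carriers, further subunits and regulators, 19 were tested. Cycs, cytochrome c itself, had 1.75, 0 and 36.2 CPM in Ptgs-competent and 110.4, 148 and 122 CPM in Ptgs-deficient libraries (log2 fold change 3.33 ± 1.51, edgeR FDR 0.573). Without Ptgs-competent replicate 3, which held most of that group's counts, its log2 fold change was 7.17. Pdss2, which makes the side chain of ubiquinone, had 5, 0 and 0 counts against 364, 198 and 84 counts. Of 51 assembly factors outside the rule, 42 were tested. Acn9 (Sdhaf3), an assembly factor of complex II, had 0 counts in all Ptgs-competent libraries and 235, 107 and 84 counts in the Ptgs-deficient ones, and Cox11, at 0, 152 and 95 counts against 0 counts in all Ptgs-deficient libraries, was not tested. Cox11 was chosen after its values were seen. Cox20, which helps to insert a mitochondrially encoded subunit of complex IV, stood at 39.2, 30.2 and 76.7 CPM against 46.7, 263 and 248 CPM.

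Carriers of the inner membrane held the lowest FDR among the lists of respiratory genes. Slc25a5, an ADP/ATP exchanger that supplies complex V, was at 42.6, 35.8 and 51.9 CPM in Ptgs-competent and 146, 307 and 314 CPM in Ptgs-deficient libraries. Every Ptgs-deficient library was above the highest Ptgs-competent one, the log2 fold change was 2.56 ± 0.46, and the edgeR FDR of 0.076 missed the threshold. Of 26 genes of the tricarboxylic acid cycle and pyruvate entry, 21 were tested. Idh2 had 92.1, 55.5 and 49.8 CPM against 107, 216 and 185 CPM (1.36 ± 0.49, edgeR FDR 0.376), while Pdk1, a kinase that holds back pyruvate entry, had 123, 143 and 37.9 CPM against 7.30, 24.6 and 44.5 CPM (-1.99 ± 0.85, edgeR FDR 0.515, and -2.65 without Ptgs-deficient replicate 3).

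Genes that keep and read the mitochondrial genome were mostly sparse, and 13 of 27 were tested. Ssbp1, the single-strand binding protein of mitochondrial DNA, stood apart at 18.3, 16.1 and 30.6 CPM against 53.6, 84.2 and 48.8 CPM (1.52 ± 0.86, edgeR FDR 0.806). Lrpprc, which stabilizes mitochondrial messengers, had 89.4, 51.7 and 127 CPM against 10.6, 63.1 and 74.3 CPM. Of 19 nuclear regulators, 14 were tested. Hif1a, the factor of the low-oxygen response, was lower in every Ptgs-deficient library, at 65.0, 85.2 and 104 CPM against 23.2, 51.4 and 22.8 CPM (-1.38 ± 0.70, edgeR FDR 0.704), and Ppargc1a, a coactivator of respiratory genes, had 0 counts in every library.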

How the data were processed

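Total RNA of sorted TAMs (800 pg per library) was turned into 3′ libraries (QuantSeq FWD), so a count stands for the 3′ end of a transcript and does not grow with its length. The authors trimmed the reads, aligned them with STAR to GRCm38 and counted them per Ensembl gene (featureCounts). They deposited raw counts per gene, not normalized, and tool versions, strand setting and handling of multiple alignments are not given in the sources used here. Without molecular identifiers, PCR copies count as reads, so intervals and the floor of 3 counts cover counting error only. The floor was 0.342 to 0.677 CPM before scaling.

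Tests were run with edgeR 4.0.16 under R 4.3.3 (filterByExpr with a minimum count of 10 and a minimum total of 15, TMM, two-sided quasi-likelihood test, Benjamini-Hochberg adjustment over all 8793 genes). The SE is the absolute log2 fold change over the square root of F. Alternatives used DESeq2 1.42.0 and limma 3.58.1. The test was checked on simulated data first. Replicate numbers did not pair the libraries, since the deviations of same-numbered libraries correlated at -0.049, -0.022 and -0.022.

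Members and lists were chosen with earlier results of these data known. Named were the 13 mitochondrial genes, in each complex the nuclear subunit with the highest mean level and up to 3 members with the smallest p, tissue forms, the Sdh genes and up to 2 genes per list by smallest p. Ndufs1, Ndufa9, Cox11, Ppargc1a and the genes of the factors searched in promoters (Nrf1, Yy1, Esrra and Gabpa) are outside this rule and were named after their values were seen. Positions, transcripts and copies came from GENCODE M21 (GRCm38), where 106 of 106 members matched. This release differs from the Ensembl release that the authors counted on, and copies were searched in its annotated transcripts only. Medians and sums over members are descriptions without a test.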

Additional observations from a re-analysis of the deposited data

How the results depend on the processing

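The nuclear median log2 fold change stayed above 0 under every alternative run, between 0.23 and 0.37, and between 0.13 and 0.40 with single libraries left out. The mitochondrial median stayed below 0 under the other settings (-0.55 to -0.037) and ranged from -0.78 to 0.14 with single libraries left out, positive only without Ptgs-competent replicate 3. The difference of the medians ranged from 0.18 to 1.19 with single libraries left out, and the difference in mitochondrial share from -1.49 to -0.40 percentage points. Nuclear members separated upward numbered 7 to 10 under other scalings and filters and 10 to 24 with single libraries left out, where fewer libraries have to be apart. Those separated downward numbered 3 under the other settings and 6 without any one Ptgs-competent replicate. They numbered 2, 4 and 3 without Ptgs-deficient replicates 1, 2 and 3. The share of all genes separated was not taken under these settings, so neither the upward nor the downward counts are read as a result about the members. The median of all genes rose to 0.39 with limma voom and 0.26 with the replicate block, so medians there are to be read against it.

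Counts of calls depended on the test. Over all genes, 19 were called, against 252 without a filter on low counts, 241 with the likelihood ratio test, 328 with DESeq2 and 123 with limma voom, and 0 to 25 with single libraries left out (0 without Ptgs-competent replicate 1, and 2, 4 and 3 without Ptgs-deficient replicates 1, 2 and 3). Among members, 2 (Atp5j and mt-Nd3) were called without a filter and 1 (Atp5j) with the likelihood ratio test, DESeq2 or limma voom, and 0 to 0 with single libraries left out. The replicate number as a block gave 77 calls over all genes and 1 among members (mt-Nd3, log2 fold change 3.45), but the libraries share only a number. The cause of these differences was not tested.

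Directions near 0 reversed. Cox7a2 was -0.031 with DESeq2 size factors in edgeR, -0.017 with unscaled totals and -0.031 with DESeq2, and ranged from -0.12 to 0.31 with single libraries left out. mt-Nd5 was 0.17 with limma voom and ranged from -0.50 to 0.36 with single libraries left out, Cox4i1 from -0.095 to 0.38, Atp5k from -0.24 to 0.25 and Sdhb from -0.57 to 0.046. Of 47 genes followed, 5 reversed in some setting.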
